A study of Mus musculus with 12 samples.

Results

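Tetraspanins are small membrane proteins that gather integrins, immune receptors and proteases into shared patches of the cell surface, and leukocytes carry several of them. The 7 genes taken as leukocyte tetraspanins were Cd151, Cd9, Cd37, Cd53, Cd63, Cd81 and Cd82, in dendritic cells (DCs) that lack the blood cell microRNA miR-142 and in DCs that have it. Every probe set annotated with 1 of these symbols alone was used. There were 11 such probe sets, for 6 of the 7 genes, among 28898 single-symbol probe sets for 17097 genes. Cd151 had 4, Cd37 and Cd53 had 2 each, and Cd9, Cd81 and Cd82 had 1 each, while Cd63 was not analysed here. The set was chosen by the log2 signals of Cd151, which were higher in knockout than in wild-type arrays, so all knockout against wild-type values of the 7 genes are given as a description, with no test.

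The study hybridised RNA from splenic DCs to 12 Affymetrix arrays in 4 groups of 3. The groups were miR-142 knockout (KO) DCs given lipopolysaccharide (LPS, a bacterial cell wall component sensed by DCs), unstimulated KO DCs, wild-type (WT) DCs given LPS, and unstimulated WT DCs. All mice were 10-week-old C57BL/6 males and the WT mice were littermates of the KO mice. DCs were taken from single spleens by positive selection, but the knockout allele, the selection marker and the LPS dose and time are unstated in the labels. Sample descriptions name T cells where all other labels name DCs. All 13 measured genes of a DC marker list, Itgax, Flt3 and Zbtb46 among them, had a mean signal over the median probe set (2.87 on the log2 scale), as did 7 of 8 measured T cell genes. So did 10 of 10 B and plasma cell, 15 of 15 macrophage and monocyte and 8 of 8 erythroid genes. The counts were 11 of 12 for neutrophil, 11 of 12 for natural killer cell and 6 of 9 for platelet genes. They therefore do not settle which label is right. Of 14 LPS response genes, 7 rose with LPS in KO arrays, against 0.266% of all probe sets, and 4 in WT arrays, against 0.128%, in limma at an adjusted p under 0.05. No probe set carried the Mir142 symbol alone, so the genotype labels were not checked against the signal of that gene.

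A microRNA pairs through its seed, bases 2 to 8, with sites in messenger RNAs and lowers their level or translation. The miR-142 hairpin gives 2 mature strands, printed here because the genotypes compared are named by miR-142. The capitals mark the seed, and the sequences and positions are from RefSeq on build GRCm38.p6. The 3p strand lies at chr11:87756903-87756925 and the 5p strand at chr11:87756867-87756887, both on the plus strand.
mmu-miR-142a-3p: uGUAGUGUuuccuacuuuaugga
mmu-miR-142a-5p: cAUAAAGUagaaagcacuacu
The strands carry different seeds. Sites in the tetraspanin transcripts were not analysed here.

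Among the tetraspanins with a probe set, Cd151 binds laminin-binding integrins and steadies their grip on the matrix. Cd9 and Cd81 are close relatives that take part in membrane fusion and cell contact. Cd37 and Cd53 are largely restricted to leukocytes, and in mice Cd37 is known to steady the fungal receptor dectin-1 and to aid DC migration. Cd82 was first known as a metastasis suppressor and restrains migration.

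Array 2 of the KO group given LPS stood apart. It correlated with the remaining arrays at 0.930 to 0.956, while those correlated with each other at 0.962 to 0.990. Its 3' Gapdh probe set exceeded the mid-transcript one by 3.04 log2 units, and by 1.53 to 1.86 on the others. Where leaving it out moved a tetraspanin difference printed here by over 1.5 times, the value without it is given too.

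Cd151 was brighter on every KO array than on every WT array in its leading probe set, the one with the highest mean signal (1456085_PM_x_at). Its log2 signal was 6.40, 6.65 and 5.83 in KO DCs given LPS, against 4.77, 4.91 and 4.92 in WT DCs given LPS. In unstimulated DCs it was 5.99, 6.11 and 6.05 in KO and 4.78, 5.02 and 4.92 in WT. The lowest of the 6 KO values therefore lay above the highest of the 6 WT values, and the groups did not overlap under either stimulation. The KO minus WT difference was 1.43 ± 0.17 after LPS (log2 ± moderated SE, n = 3 arrays per group), a 2.69-fold higher signal. It was 1.15 ± 0.17 in unstimulated DCs, 2.21-fold, and 1.29 ± 0.12 averaged over both stimulations, 2.44-fold. Without KO LPS array 2, the highest of the 12, the difference after LPS was 1.25 ± 0.15, and without KO LPS array 3, the lowest of the KO arrays, it was 1.66 ± 0.12.

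By group the leading Cd151 signal was highest in KO with LPS (6.29 ± 0.42, SD, n = 3), then unstimulated KO (6.05 ± 0.06), unstimulated WT (4.91 ± 0.12) and WT with LPS (4.87 ± 0.08). The arrays of the KO groups overlapped each other, as did those of the WT groups, so the only step in this order without overlap was the one between genotypes. The KO arrays given LPS were more spread than those of any other group in this probe set.

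**Figure D1:**
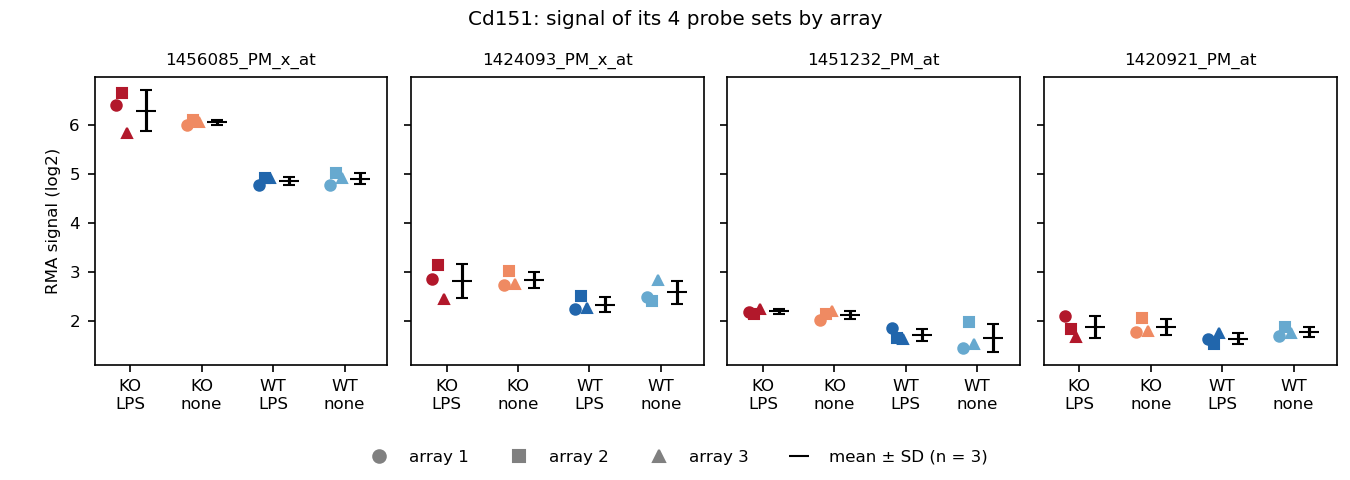
Log2 RMA signal of the 4 Cd151 probe sets (y axis, shared) on each of the 12 arrays by group (x axis), with mean ± SD of 3 arrays beside the points. The 6 KO arrays of 1456085_PM_x_at lie between 5.83 and 6.65 and its 6 WT arrays between 4.77 and 5.02, while the other 3 probe sets lie between 1.45 and 3.14.

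The other 3 Cd151 probe sets were dim, with means of 2.64, 1.92 and 1.79, all under the median probe set. Probe set 1451232_PM_at read 2.19, 2.15 and 2.25 in KO with LPS against 1.86, 1.65 and 1.64 in WT with LPS. Without stimulation it read 2.02, 2.15 and 2.19 in KO against 1.45, 1.98 and 1.54 in WT. Its KO and WT arrays did not overlap either, and its averaged difference was 0.47 ± 0.10. The KO and WT arrays of 1424093_PM_x_at and 1420921_PM_at overlapped under both stimulations, and their averaged differences were 0.37 ± 0.12 and 0.17 ± 0.09. All 4 differences were positive, but the dim probe sets showed 0.17 to 0.47 where the leading one showed 1.29. In Affymetrix naming the suffix x_at marks probe sets with some probes that may also match other transcripts. It applies to 1456085_PM_x_at and 1424093_PM_x_at, and whether other transcripts add to their signal was not tested. Over the 12 arrays the leading probe set correlated with the other 3 at Pearson's r of 0.77, 0.83 and 0.62, given as a description.

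Groups without overlap after LPS were found for 2 of the 11 probe sets in the direction of higher KO, both of Cd151, against 6.89% of all probe sets, and for 1 lower in KO (Cd82), against 10.2%. In unstimulated DCs they were found for 2 higher in KO, against 8.82% of all probe sets, and for 0 lower, against 7.7%. The same 2 Cd151 probe sets were without overlap under both stimulations, against 2.41% of all probe sets. The choice of Cd151 used these comparisons, so nothing is read from the counts.

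Transcripts of some other cell types were also higher in the KO arrays. Of 12 measured neutrophil genes 9 were higher in the averaged KO comparison (limma adjusted p under 0.05), against 1.35% of all probe sets, and the log2 of their summed signal was 11.12 to 12.66 in KO with LPS, 11.20 to 12.89 in unstimulated KO, 7.72 to 9.86 in WT with LPS and 7.85 to 9.98 in unstimulated WT. Of 12 natural killer (NK) cell genes 9 were higher, with summed signals of 10.16 to 10.36, 10.17 to 10.40, 8.08 to 8.67 and 8.22 to 8.65 in the same order of groups. Of 9 platelet genes 0 passed in limma (6 at an unadjusted p under 0.05, against 16% of all probe sets), and their sums were 7.59 to 9.52, 7.80 to 9.10, 6.79 to 7.48 and 6.88 to 7.46. The fit behind these counts takes the LPS and unstimulated arrays of 1 number within a genotype as independent. When such arrays were averaged, calls over all probe sets fell from 614 to 60, and the list counts were not redone. No RMA signal is 0, but the neutrophil gene Elane, the NK gene Ncr1 and the platelet genes Gp5, Gp6 and Treml1 had means under the median probe set. In KO arrays numbered 3 the neutrophil sum was 11.12 with LPS and 11.20 without, against 12.65 to 12.89 on the other 4 KO arrays, where leading Cd151 read 5.83 and 6.05 against 5.99 to 6.65. The part of these cells in the Cd151 signal was not tested. The DCs had been enriched by positive selection, and the share of other cells left in each sample is not given. In RNA from such a bulk sample, more cells that carry a transcript and more transcript per cell cannot be told apart.

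**Figure D2:**
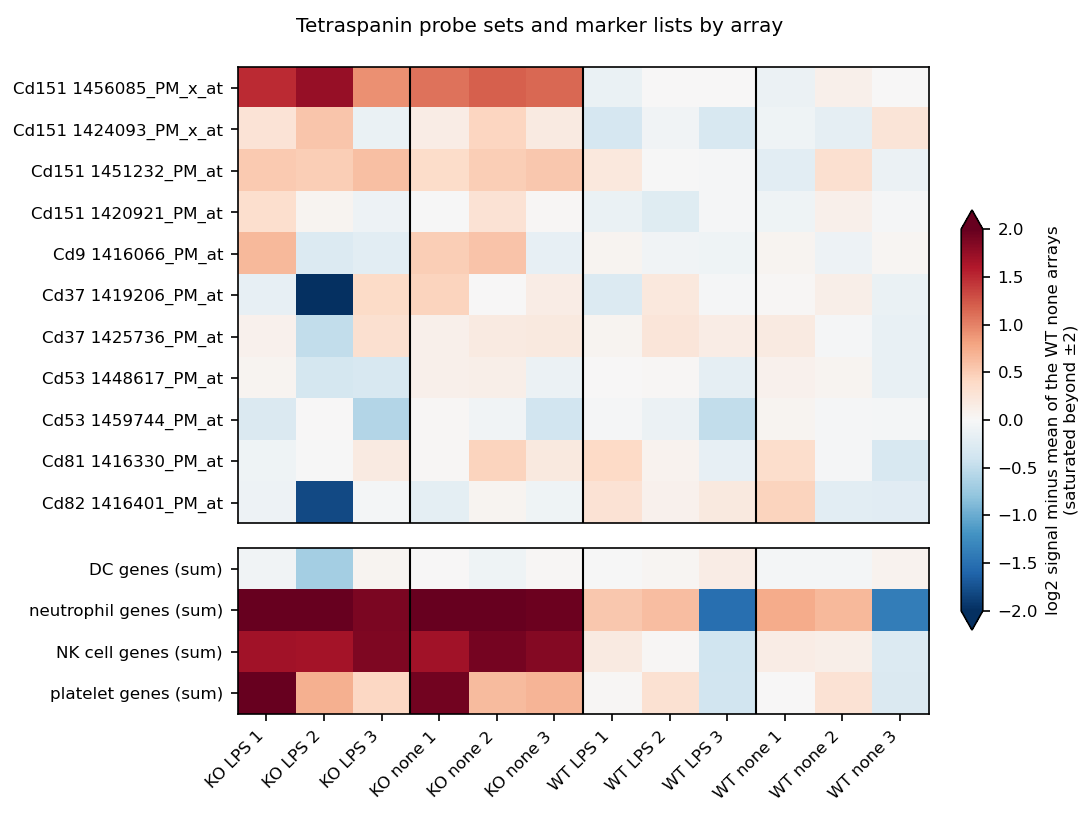
Log2 signal of each tetraspanin probe set (rows, above) and of 4 summed marker lists (rows, below) on the 12 arrays (columns), minus the mean of the 3 unstimulated WT arrays, with colours saturated beyond 2 units. Leading Cd151 is higher on all 6 KO arrays, and Cd37 and Cd82 are lowest on KO LPS array 2.

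Cd9 varied mostly within the KO groups. Its signal was 7.52, 6.60 and 6.67 in KO with LPS, against 6.92, 6.81 and 6.80 in WT with LPS. Without stimulation it was 7.37, 7.45 and 6.72 in KO, against 6.94, 6.77 and 6.92 in WT. Thus 3 of the 6 KO arrays lay above every WT array and the other 3 lay below every WT array. The SD over 3 arrays was 0.51 and 0.40 in the KO groups with and without LPS, against 0.07 and 0.09 in the WT groups. The KO minus WT difference was 0.08 ± 0.23 after LPS and 0.30 ± 0.23 unstimulated, and 0.25 ± 0.23 after LPS without KO LPS array 2. Cd9 is abundant on platelets, and the platelet sum was highest on the arrays numbered 1 of the KO groups (9.52 and 9.10, against 7.59 to 7.89 on the other KO arrays). Both of those arrays were among the 3 with high Cd9. The third, unstimulated KO array 2, had a platelet sum of 7.80. The sum of 15 macrophage and monocyte genes was 10.91 to 11.16 on the 3 KO arrays with high Cd9. It was 10.64 to 10.79 on the other 3 KO arrays. On WT arrays this sum was 10.28 to 10.91 with LPS and 10.35 to 11.05 without. The part of platelets or of macrophages and monocytes in the Cd9 signal was not tested.

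Cd81, the relative of Cd9, overlapped between all groups. It read 7.31, 7.39 and 7.58 in KO with LPS against 7.79, 7.47 and 7.24 in WT with LPS. Unstimulated KO arrays read 7.42, 7.84 and 7.60, against 7.75, 7.37 and 7.08 in unstimulated WT. The order of group means was unstimulated KO (7.62), WT with LPS (7.50), KO with LPS (7.43) and unstimulated WT (7.40), and no neighbours in it differed beyond their SDs of 0.14 to 0.33. The KO minus WT difference was −0.07 ± 0.18 after LPS and 0.22 ± 0.18 unstimulated.

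The leukocyte tetraspanin Cd53 was even across the groups in its leading probe set (1448617_PM_at). It read 9.15, 8.74 and 8.78 in KO with LPS, 9.20, 9.21 and 8.97 in unstimulated KO, 9.11, 9.12 and 8.92 in WT with LPS and 9.18, 9.15 and 8.94 in unstimulated WT. In each of the unstimulated KO, WT with LPS and unstimulated WT groups, array 3 was the lowest. The KO minus WT difference was −0.16 ± 0.13 after LPS (−0.09 ± 0.14 without KO LPS array 2) and 0.03 ± 0.13 unstimulated. The dimmer probe set 1459744_PM_at ran from 3.04 to 3.69 over the 12 arrays and its groups overlapped, with KO minus WT differences of −0.08 ± 0.17 after LPS (−0.23 ± 0.16 without KO LPS array 2) and −0.14 ± 0.17 unstimulated.

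Cd37 and Cd82 shared a low value on 1 array. Cd37 (1419206_PM_at) read 5.61, 3.72 and 6.17 in KO with LPS, against 5.52, 5.99 and 5.77 in WT with LPS, and 6.24, 5.79 and 5.93 in unstimulated KO, against 5.81, 5.89 and 5.65 in unstimulated WT. Its lowest value, 3.72, was that of KO LPS array 2, and all other arrays lay at 5.52 or above. The KO minus WT difference after LPS was −0.59 ± 0.44 with this array and 0.13 ± 0.19 without it, so its sign turned. Unstimulated it was 0.20 ± 0.44, with an SE of 0.17 in the fit without that array. The dimmer Cd37 probe set (1425736_PM_at) had its lowest value, 2.83, on the same array, against 3.17 to 3.63 elsewhere.

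Cd82 read 6.09, 4.39 and 6.16 in KO with LPS, against 6.48, 6.27 and 6.39 in WT with LPS. Without stimulation it read 6.00, 6.24 and 6.11 in KO, against 6.63, 5.98 and 5.97 in WT. After LPS every KO array lay below every WT array, also without KO LPS array 2. The difference after LPS was −0.83 ± 0.36 with that array and −0.25 ± 0.18 without it, and −0.07 ± 0.36 unstimulated, where the groups overlapped, with an SE of 0.16 in the fit without it. Leading Cd53 (8.74) and Cd9 (6.60) were also at their lowest of the 12 arrays on KO LPS array 2, the array with the largest Gapdh 3' excess, though by less than Cd37 and Cd82. Cd81 on it (7.39) lay within the range of the other arrays, and leading Cd151 was at its highest. The part of RNA quality in these values was not tested.

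**Figure D3:**
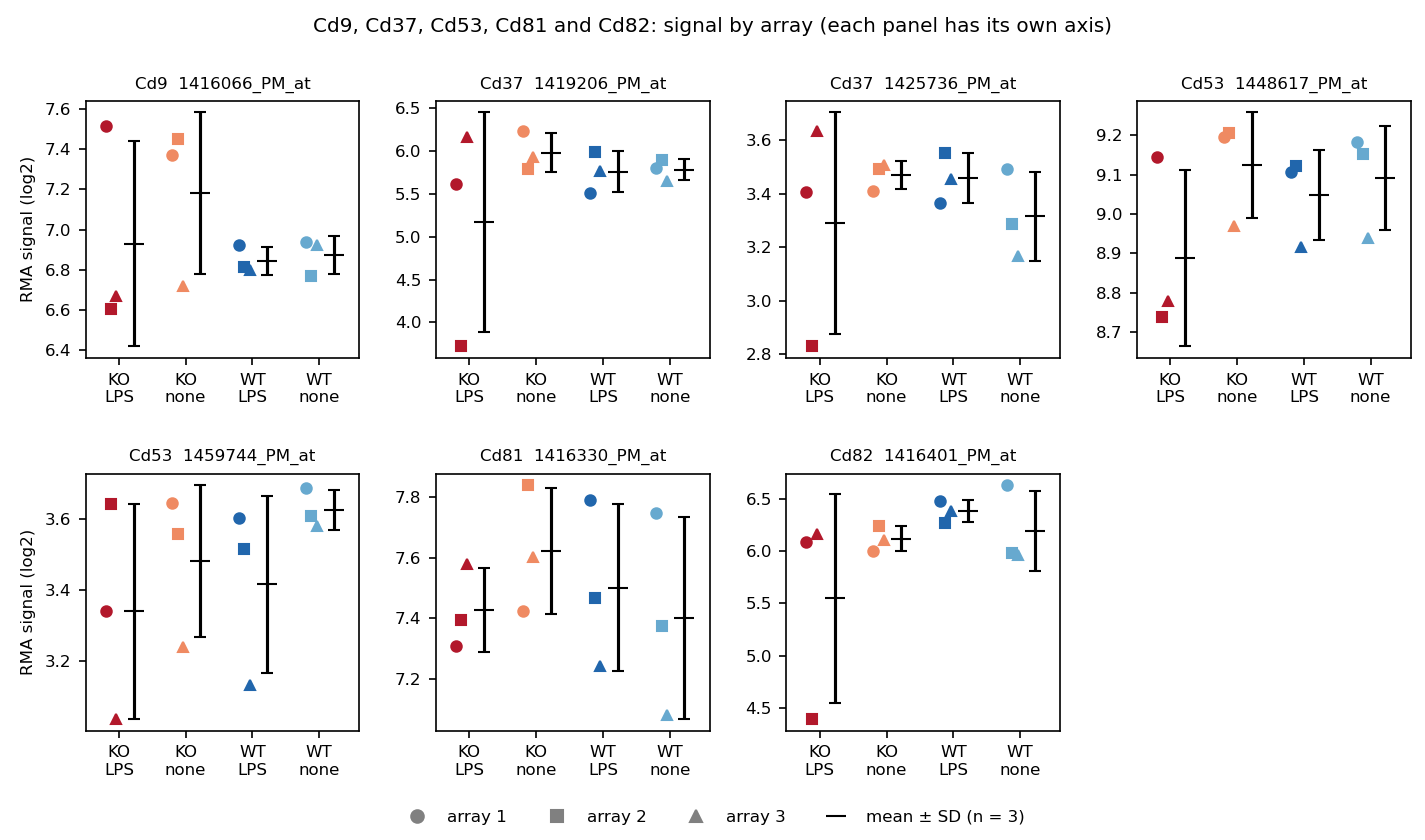
Log2 RMA signal of the 7 probe sets of Cd9, Cd37, Cd53, Cd81 and Cd82 (y axis, a separate range for each panel) on each array by group (x axis), with mean ± SD of 3 arrays. KO LPS array 2 (square) is at 3.72 for Cd37 1419206_PM_at and 4.39 for Cd82, and Cd9 splits the KO arrays into 3 above and 3 below the WT arrays.

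The response to LPS, which did not enter the choice of genes, was then tested in the same limma fit with adjustment over all 28898 probe sets. In WT DCs 0 of the 11 tetraspanin probe sets passed an adjusted p of 0.05, against 0.128% of all probe sets, and 0 had an unadjusted p under 0.05, against 4.93%. In KO DCs 0 of 11 passed, against 0.301% of all, and 0 had an unadjusted p under 0.05, against 9.53%. The smallest limma adjusted p was 0.9998 in WT and 0.598 in KO. The difference between the responses, KO minus WT, passed for 0 of 11 tetraspanin probe sets and for 0% of all (smallest limma adjusted p among the 11 of 0.957), with 0 of 11 and 3.95% of all at an unadjusted p under 0.05. The median LPS effect of the 11 probe sets was −0.18 in KO, against −0.02 for all probe sets, and −0.09 without KO LPS array 2. In WT it was −0.03, against 0.00 for all.

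The intervals of these tests differ in width between the genes. For leading Cd151 the LPS effect was 0.24 in KO (95% confidence interval −0.12 to 0.61) and −0.04 in WT (−0.41 to 0.33). Without KO LPS array 3 the KO effect was 0.48 (limma adjusted p = 0.131), and without KO LPS array 2 it was 0.06 (adjusted p = 0.976). Cd53 was bounded most closely among the leading probe sets, at −0.24 in KO (−0.52 to 0.05) and −0.04 in WT (−0.33 to 0.24). Cd81 had estimates of opposite sign in the genotypes, −0.19 in KO (−0.59 to 0.20) and 0.10 in WT (−0.30 to 0.50), and the difference between them was −0.29 ± 0.26 (limma adjusted p = 0.957).

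Cd9 had an LPS effect of −0.25 in KO (−0.75 to 0.25) and −0.03 in WT (−0.53 to 0.47). Its KO value was −0.54 without KO LPS array 1, −0.09 without array 2 and −0.12 without array 3. For Cd82 it was −0.57 in KO (−1.36 to 0.22) and 0.19 in WT (−0.60 to 0.98), and the KO value was 0.01 without KO LPS array 2. For Cd37 it was −0.82 in KO (−1.78 to 0.15), the largest LPS difference of any member here, and −0.02 in WT (−0.99 to 0.94). Without KO LPS array 2 the KO value for Cd37 was −0.09 (limma adjusted p = 0.972).

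Arrays of the same number within a genotype resembled each other, so the LPS array can also be set against the unstimulated array of its number. Leading Cd151 differed by 0.41, 0.55 and −0.23 in KO for numbers 1, 2 and 3, and by −0.01, −0.11 and −0.01 in WT. Cd9 differed by 0.15, −0.85 and −0.05 in KO, and by −0.01, 0.05 and −0.13 in WT. Leading Cd53 was lower with LPS in 3 of 3 KO numbers (−0.05, −0.47 and −0.19) and in 3 of 3 WT numbers (−0.08, −0.03 and −0.02). Its dimmer probe set differed by −0.30, 0.08 and −0.20 in KO, and by −0.09, −0.09 and −0.45 in WT. Cd81 was lower in 3 of 3 KO numbers (−0.12, −0.44 and −0.02) and higher in 3 of 3 WT numbers (0.05, 0.09 and 0.16), with every WT difference at or under 0.16. Leading Cd37 differed by −0.62, −2.07 and 0.24 in KO, and by −0.29, 0.10 and 0.12 in WT. For Cd82 the differences were 0.09, −1.85 and 0.05 in KO, and −0.15, 0.29 and 0.42 in WT. How many of all probe sets moved in the same direction in 3 of 3 numbers was not counted, so nothing is read from these counts. None of the members passed in the fit that blocks on the array number.

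**Figure D4:**
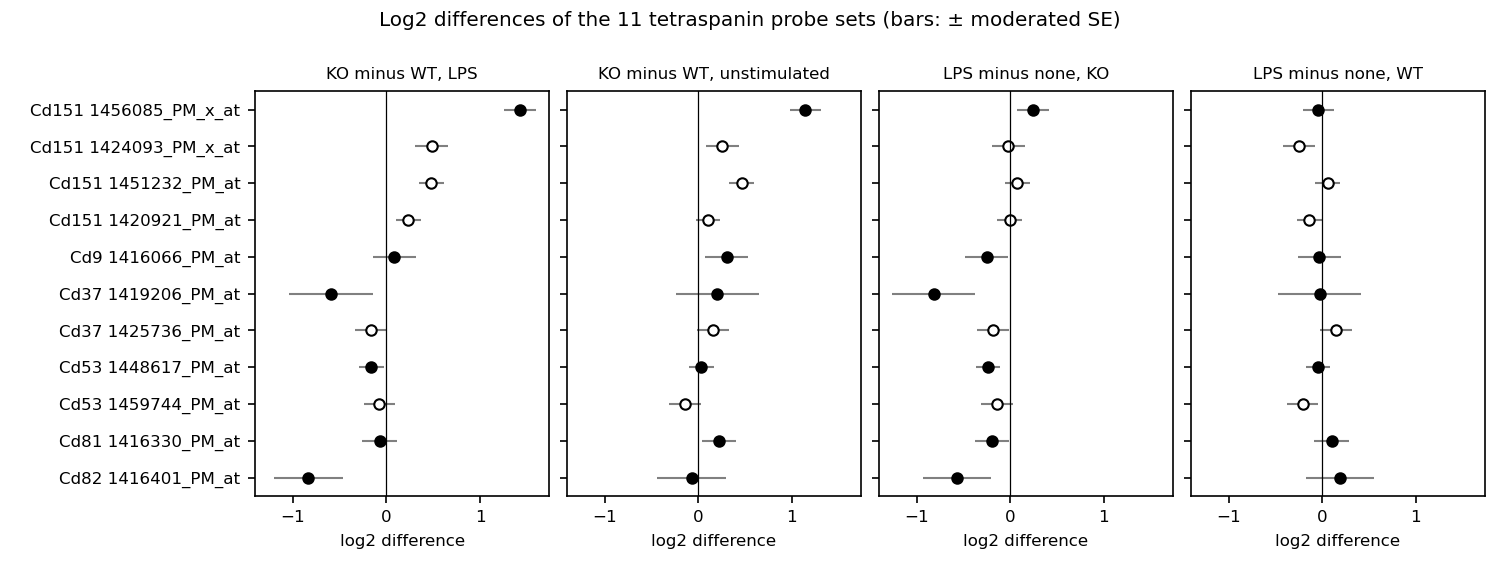
Log2 differences (x axis) with moderated SE of the 11 probe sets (rows) after LPS and unstimulated for KO minus WT, and in KO and WT for LPS minus none, with filled points for the leading probe set of each gene. Leading Cd151 stands at 1.43 and 1.15 in the KO comparisons and at 0.24 and −0.04 in the LPS comparisons.

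No other tetraspanin passed for LPS either. A list of the remaining tetraspanin family held 24 genes, of which 23 were measured, each by its leading probe set. In limma 0 of 23 passed in any of the 6 comparisons. Of all probe sets 0.322% passed for KO against WT after LPS, 0.163% unstimulated and 2.12% averaged. The shares for LPS were 0.301% in KO, 0.128% in WT and 0% for the difference between responses, so the 0 of 23 says little about this family. At an unadjusted p under 0.05 the count for KO against WT was 5 of 23 after LPS (13.9% of all probe sets), 0 unstimulated (8.49%) and 5 averaged (16%). For LPS it was 1 in KO (9.53%), 3 in WT (4.93%) and 1 for the difference between responses (3.95%). The median difference of the 23 was 0.02 in the averaged KO comparison, against −0.02 for all genes, and −0.04 and 0.04 for LPS in KO and in WT, against −0.02 and 0.00. Chosen after their values were seen, 2 genes show the size of differences that missed the threshold. Tspan32, a tetraspanin of blood cells, read 4.33, 4.15 and 4.53 in KO with LPS against 4.61, 4.82 and 4.87 in WT with LPS. Its unstimulated KO arrays read 4.54, 4.50 and 4.53, against 4.67, 4.66 and 4.98 in WT. The averaged difference was −0.34 ± 0.09 (limma adjusted p = 0.0752), with every KO array below every WT array of its stimulation. Such an order was found for 1 of the 23 genes, against 2.1% of all probe sets. Tspan33, of the group of tetraspanins that carry the protease ADAM10 to the surface, read 5.81, 5.71 and 5.89 in WT with LPS against 5.31, 4.86 and 5.09 in unstimulated WT, a difference of 0.71 ± 0.20 (limma adjusted p = 0.584). In KO it was 0.25 ± 0.20 (limma adjusted p = 0.742), and the groups overlapped.

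**Figure D5:**
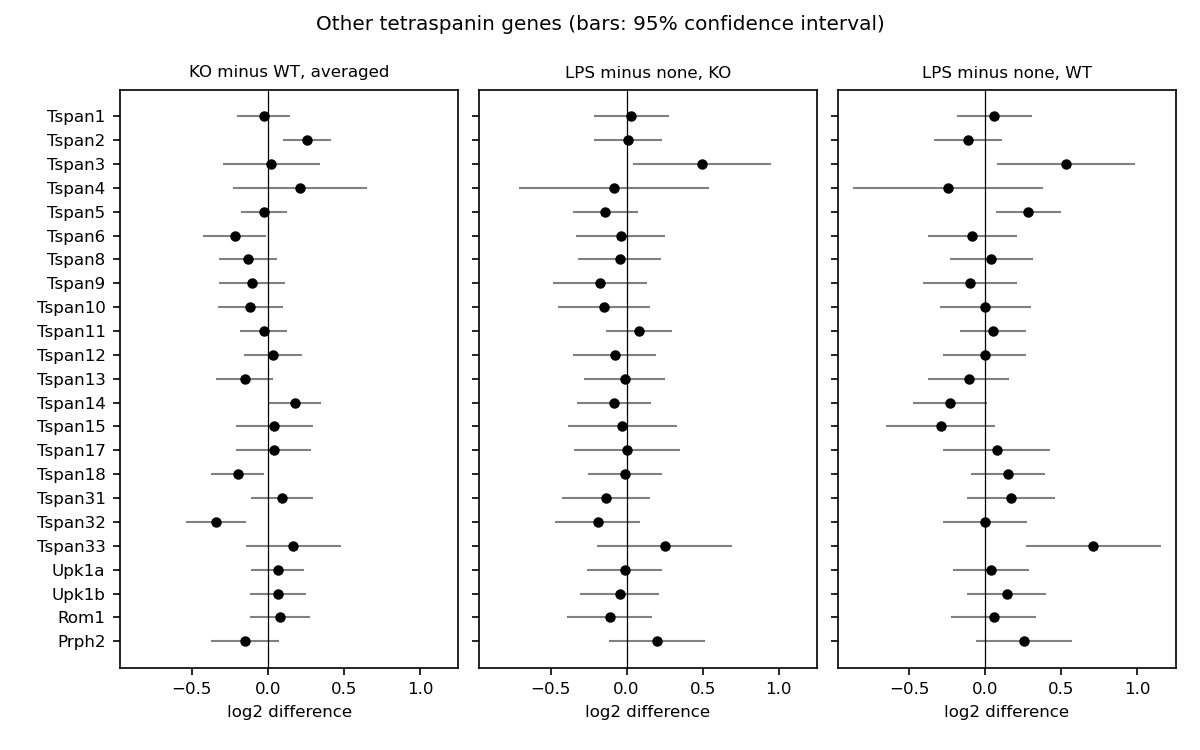
Log2 difference (x axis) with 95% confidence interval of 23 other tetraspanin genes (rows) for KO minus WT averaged over stimulations, LPS minus none in KO and LPS minus none in WT. Tspan32 lies lowest in the KO comparison at −0.34, and Tspan33 highest for LPS in WT at 0.71.

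A second list held 30 genes whose proteins are known to associate with tetraspanins (integrins, immunoglobulin-family partners, receptors and proteases), of which 28 were measured. With LPS 1 of 28 rose in KO, against 0.266% of all probe sets, and 0 fell (0.0346%), while in WT 0 of 28 passed in limma (0.128%). At an unadjusted p under 0.05 there were 6 of 28 in KO, against 9.53% of all probe sets, and 2 in WT, against 4.93%. The riser was Icam1, the adhesion ligand of leukocyte integrins. Icam1 read 8.52, 8.21 and 8.56 in KO with LPS against 7.32, 7.70 and 7.42 in unstimulated KO, a rise of 0.95 ± 0.13 (limma adjusted p = 0.00703). In WT it read 8.37, 8.53 and 8.53 with LPS against 7.73, 7.62 and 7.82 unstimulated, 0.76 ± 0.13 (limma adjusted p = 0.0550). The interaction passed for 0 of 28 partner genes in limma (0% of all probe sets). At an unadjusted p under 0.05 it was 1 of 28, against 3.95%. The responses of Icam1 are thus not shown to differ.

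In the averaged KO comparison 2 of 28 partner genes were lower, against 0.775% of all probe sets, and 0 were higher, against 1.35%. They were Cd4 and Kit, named after their values were seen. Cd4, the co-receptor that also marks a subset of splenic DCs, read 4.86, 4.31 and 4.92 in KO with LPS and 5.10, 4.60 and 4.97 in unstimulated KO, against 5.36, 5.34 and 5.38 in WT with LPS and 5.49, 5.36 and 5.65 in unstimulated WT. It fell by 0.64 on the log2 scale (SE 0.12, limma adjusted p = 0.0191). The stem cell factor receptor gene Kit fell by 0.66 (SE 0.11, limma adjusted p = 0.0110), with KO arrays at 4.93 to 5.68 and WT arrays at 5.78 to 6.22. For both genes every KO array lay below every WT array. Groups lower in KO without overlap under both stimulations were found for 4 of 28 partner genes, against 2.1% of all probe sets. When both arrays of a number were averaged, giving 3 KO against 3 WT values, the limma adjusted p was 0.158 for Cd4 and 0.0663 for Kit, and Cd4 also missed the threshold without WT LPS array 3 (0.0542) or unstimulated WT array 3 (0.0565). Adam10, the protease carried by several tetraspanins, did not pass in the averaged comparison (0.59 ± 0.16, limma adjusted p = 0.0819). Its KO arrays lay above the WT arrays of the same stimulation (6.49 to 7.45 against 5.98 to 6.38 with LPS, and 6.67 to 7.13 against 6.18 to 6.55 without). The 7.45 was that of KO LPS array 2, which stood apart, and KO LPS arrays 1 and 3 read 6.49 and 6.67. The Adam10 difference without KO LPS array 2 is not given here. KO above WT under both stimulations was found for 1 of 28 partner genes, against 2.41% of all probe sets. Neutrophil and NK cell genes were higher on the same KO arrays, with the sums given above, and their part in these differences was not tested.

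The genes whose signal followed leading Cd151 most closely over the 12 arrays, among 8548 compared, were Crk (Pearson's r 0.965), Rab2a (0.962), Ipcef1 (0.955), Lig3 (0.951) and Chil3 (0.950). These arrays share 4 groups, so a gene that differs between genotypes correlates with another that does. After group means were removed the values were 0.81 for Crk, 0.58 for Rab2a, 0.67 for Ipcef1, 0.66 for Lig3 and 0.62 for Chil3. The genes were picked by their correlation over these same 12 arrays, so the values left are a description and no test. Within groups, leading Cd151 varied mostly in KO with LPS (SD 0.42, against 0.06 to 0.12 in the other groups), which includes KO LPS array 2. Crk encodes a signalling adaptor, Rab2a a small GTPase of membrane traffic and Chil3 a chitinase-like protein of myeloid cells. The genes most like Cd9 were Pkm (0.929) and Slc16a3 (0.910), a glycolytic enzyme gene and a lactate transporter gene, and both stayed near those values without KO LPS array 2 (0.919 and 0.913). Cd53 was most like Pnp2 (0.951) and Pgk1 (0.930), and Cd81 most like Cadm1 (0.916) and Myo9a (0.914). Cd37 was most like Tmsb10 (0.978) and Esyt1 (0.973), and Cd82 most like Eif5a (0.968) and Psmb2 (0.965). These 4 values rested in part on the array that stood apart, since without it they were 0.776, 0.727, 0.749 and 0.736.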

How the data were processed

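Per the labels' protocols, RNA of each sample was amplified from both oligo(dT) and random primers and measured on its own Affymetrix array. The deposited values are log2 signals per probe set that the authors made with RMA, per the submitters' processing notes, which name no software version. Of 45141 probe sets, 28898 had 1 gene symbol, 551 had several, 15588 had none and 104 were controls. Symbols were updated to RefSeq by Entrez number for 28689 probe sets. All single-symbol probe sets were fitted with limma 3.58.1 in R 4.3.3 (4 group means, lmFit and eBayes, 8 residual and 4.38 prior degrees of freedom), with Benjamini-Hochberg adjustment within each of 6 contrasts and a threshold of 0.05. SEs are moderated. No filter on dim probe sets was applied, and the number of arrays limits the precision. The fit was tested on simulated data.

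Lists used each gene's leading probe set, the one with the highest mean. The genes and lists were chosen with earlier results of these data known. Named were all tetraspanin probe sets, up to 3 called genes per direction of the family and partner lists in each LPS contrast, and the most correlated genes among those at or above the median (5 for Cd151, 2 for each other gene). Tspan32, Tspan33, Adam10, Cd4 and Kit fall outside this rule and were named after their values were seen. The B and plasma cell, erythroid, and macrophage and monocyte lists (10, 8 and 15 measured) had 1 higher and 1 lower, 1 higher, and 1 higher and 1 lower member in the averaged KO comparison, the DC list 1 lower of 13 and the T cell list 0 of 8 in limma (3 at an unadjusted p under 0.05, against 16% of all probe sets). Over all probe sets 1.35% were higher and 0.775% lower. The averaged difference was positive for 8 of 8 erythroid genes, with a median of 0.80, against −0.02 for all genes.

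The labels number the mice within each group without saying that numbers are shared. In deviations from the group means, arrays of 1 genotype with the same number correlated at 0.220 to 0.387, and different numbers at −0.292 to −0.047, so the replicate number within genotype was treated as a pairing in an alternative. Across genotypes same-numbered arrays of 1 stimulation correlated at −0.004 to 0.197 and were not treated as pairs. Alternatives varied the probe sets tested, scaling, array weights, blocks and the arrays included.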

Additional observations from a re-analysis of the deposited data

How the results depend on the processing

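The count of tetraspanin probe sets that passed for LPS in WT, LPS in KO or the difference between them stayed at 0 with 1 probe set per gene, without dim probe sets, with quantile or median scaling, with array weights, with a fixed or random replicate block (number within genotype) and without each of the 12 arrays. The Cd151 difference after LPS was 1.25 to 1.66 when 1 array was left out, the unstimulated difference 1.08 to 1.20 and the averaged one 1.20 to 1.40. With array number over all arrays as a replicate block they were 1.43, 1.15 and 1.29, as in the fit without it. Without KO LPS array 2 the Cd37 and Cd82 values moved as given with them. Alternatives for single genes, the pair means and the random block for KO against WT were added after the data were seen. Over all probe sets the calls depended far more on the fit. For LPS in WT there were 37, against 20 with 1 probe set per gene, 106 with the fixed block, 74 with the random block, 79 with array weights and 11 (without WT LPS array 3) to 104 (without KO LPS array 2) when 1 array was left out. For LPS in KO there were 87, against 198, 154, 155 and 42 to 134 under the last 4 of these. The averaged KO comparison had 614, against 406 with the random block, 60 with pair means, 1136 with array weights, 1267 with array number as a block and 260 to 1243 when 1 array was left out. Icam1 in WT passed with array weights (adjusted p = 0.0166), the random block (0.0268) and without KO LPS array 2 (0.0115) or unstimulated KO array 2 (0.0410), all in limma. Of the 4 Cd151 probe sets 3 had means under the median probe set, and their signal over background was not measured here.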
